A study of Rattus norvegicus with 8 samples.

Results

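The proteasome is the barrel-shaped protease that degrades ubiquitin-tagged proteins in every cell. Its 20S core is built of rings of alpha subunits (Psma genes), which gate the channel, and rings of beta subunits (Psmb genes), of which Psmb5, Psmb6 and Psmb7 carry the catalytic sites. The 19S regulatory particle caps the core with a ring of ATPases (Psmc genes), which unfold the substrate, and with non-ATPase subunits (Psmd genes), which receive and remove ubiquitin. In cells exposed to interferon, Psmb8, Psmb9 and Psmb10 can take the places of the catalytic beta subunits, and Psme1 and Psme2 form an activator that can replace the 19S cap; together they make up the immunoproteasome, known for cutting peptides for display on MHC class I. The genes described here are those whose symbol on the Affymetrix rat genome array begins with Psma, Psmb, Psmc, Psmd or Psme and a number and that have a probe set with a single symbol, which gave 41 of the 14217 genes measured in this way. They comprise 13 core 20S genes, 20 genes of the 19S particle and its assembly, 5 immunoproteasome genes, the activator Psme4, and 2 genes that share only the prefix, Psmc3ip and Psme3ip1. Psmb6 and Psme3 were not among them because each of their probe sets carries several symbols.

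Female Sprague-Dawley rats carried a silicone capsule that released 5α-dihydrotestosterone (DHT), an androgen that aromatase does not turn into estrogen, for 12 weeks, and control (CTL) rats carried an empty capsule. Ovarian cortex was taken at 15 weeks of age, and RNA of 3 DHT and 3 CTL animals was hybridized singly, with 1 further array per group of the pooled RNA of the same 3 animals. All values are log2 expression per probe set, and where a gene had several probe sets, the one brightest on average over the 6 single-animal arrays was taken. The 3 DHT arrays were compared with the 3 CTL arrays by limma over 31042 probe sets, and a gene was called where it differed by at least 2-fold with a p of at most 0.01 and a false discovery rate of at most 10%. In whole tissue, fewer cells of a type and less RNA per cell cannot be told apart.

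The arrays differed in ways that the groups do not account for. The Gapdh difference, the log2 value of the control probe set at the 3' end of Gapdh minus that at its 5' end, which grows as labelled RNA becomes short at the 5' end, was 0.39 and 0.62 on CTL replicates 1 and 2 but 3.49 on CTL replicate 3 and 2.99 to 3.98 on the 3 DHT replicates. In this difference CTL replicate 3 resembles the DHT replicates, and CTL replicates 1 and 2 are the arrays that differ. CTL replicate 3 stands apart in its median log2 value over all probe sets, 3.25 against 2.97 to 3.03 on the other arrays. The values of the described members without CTL replicate 3 are given together after the account of the classes. Of 10 ovarian markers, among them the follicle hormone Amh and the granulosa factor Foxl2, 9 were measured and none was near background on all 6 arrays, where background is the 95th percentile of olfactory, vomeronasal and taste receptor probe sets. The oocyte genes Gdf9 and Zp3 were near it on 3 arrays and on 1. Inhba, a subunit of activin and inhibin, was called higher in DHT-treated ovaries at 1.45 (adjusted p = 0.0692, limma). It was the only marker of the list called, and of the 9 measured 6 had a higher mean in DHT-treated ovaries and 3 a lower one. Cyp17a1 had 2.65 (adjusted p = 0.418), whereas Cyp11a1 had -3.17 (adjusted p = 0.29) and Cyp19a1 -2.91 (adjusted p = 0.404).

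None of the 41 proteasome genes was called in either direction. Over all probe sets 1.03% were called, 0.351% lower and 0.68% higher in DHT-treated ovaries. At an unadjusted p under 0.05, limma gave 3 members lower (Psmd10, Psmd12 and Psmd13) and 2 higher (Psma3 and Psme3ip1), against 3.92% lower and 7.94% higher over all probe sets. The adjusted p of the members ran from 0.24 to 0.978. The median log2 fold change, the mean of the DHT replicates minus that of the CTL replicates, was -0.21 for the core 20S genes, -0.33 for the 19S genes and 0.66 for the immunoproteasome genes, beside -0.029 over all probe sets and 0.11 over the 15539 probe sets above background on all 6 arrays. Of the 33 core and 19S genes 24 had a negative log2 fold change, and all 5 immunoproteasome genes had a positive one. Over all probe sets 62.5% were negative, and of those above background 41.6%. Without CTL replicate 3, 29 of the 33 and 3 of the 5 were negative.

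The CTL replicates varied more than the DHT replicates in every member but Psmd13. For the core 20S genes the SD over the 3 DHT replicates had a median of 0.23 on the log2 scale, while over the 3 CTL replicates it had a median of 1.66. For the 19S genes the medians were 0.14 and 0.68, and for the immunoproteasome genes 0.14 and 1.4. Over all probe sets they were 0.067 and 0.24, and over those above background 0.16 and 0.47. CTL replicate 3 gave the lowest of the 6 values in 35 of the 41 members, as it did in 21.7% of all probe sets and in 38.2% of those above background. Against the mean of CTL replicates 1 and 2, CTL replicate 3 read lower by a median of 2.86 in the core genes, from a difference of -4.15 for Psma2 to one of -0.0027 for Psma3. The corresponding median difference was -1.11 in the 19S genes and -2.38 in the immunoproteasome genes. Psmc6, Psmd11 and Psmd12 went the other way and had their highest value on CTL replicate 3.

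**Figure D1:**
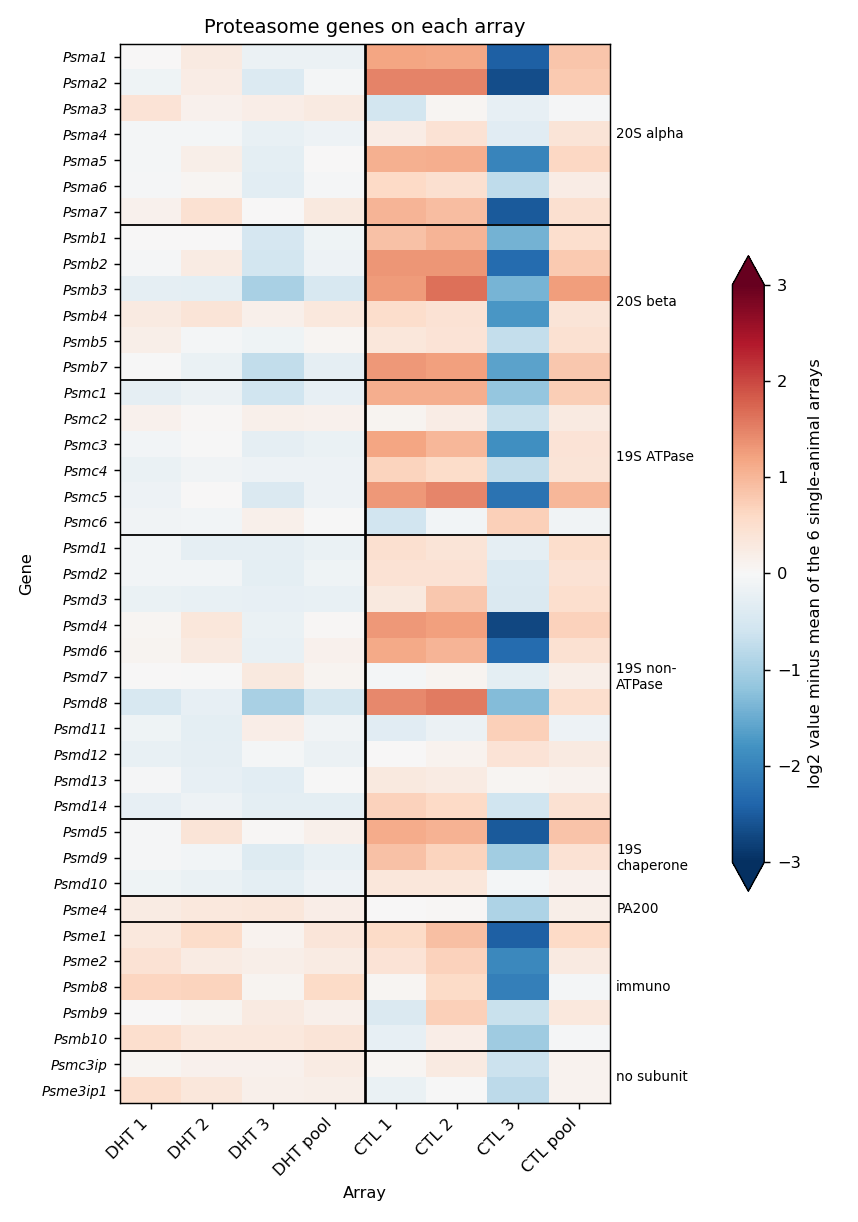
Log2 value of each of the 41 genes (rows, grouped by role) on the 6 single-animal arrays and the 2 arrays of pooled RNA (columns), shown as the deviation from the gene's mean over the 6 single-animal arrays. CTL replicates 1 and 2 lie above the DHT replicates in most core 20S and 19S rows, CTL replicate 3 lies below them, and in the immunoproteasome rows CTL replicate 3 is low while the other 2 CTL replicates resemble the DHT replicates.

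The 7 alpha ring genes showed this layout with differing strength. Psma2 read 8.41, 8.76 and 8.12 on the DHT replicates and 10.04, 10.03 and 5.88 on the CTL replicates. The DHT values lay close together between the high pair of controls and the single low control, so the log2 fold change was -0.22 (standard error 1.22, adjusted p = 0.942, limma). Psma6 read 9.73, 9.82 and 9.45 in DHT-treated and 10.38, 10.25 and 9.01 in CTL ovaries, a narrower version of the same order (-0.21, adjusted p = 0.896). Psma4 read 8.12, 8.13 and 7.96 against 8.41, 8.61 and 7.84 (-0.22, adjusted p = 0.896). Psma3 was the exception in the ring at its single-symbol probe set. It read 7.14, 6.85 and 6.94 in DHT-treated and 6.18, 6.8 and 6.49 in CTL ovaries, so that every DHT replicate lay above every CTL replicate, but the log2 fold change of 0.49, with a standard error of 0.18, did not pass the test (adjusted p = 0.385). Psma1, Psma5 and Psma7 had their CTL replicate 3 value below all DHT replicates and their other CTL values above them.

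In the beta ring all 6 genes measured had the 3 DHT replicates below CTL replicates 1 and 2 and above CTL replicate 3. Psmb3, a structural subunit, had the most negative change of the core genes. It read 8.03, 8 and 7.33 in DHT-treated and 9.58, 9.95 and 6.9 in CTL ovaries (-1.02, standard error 0.87, adjusted p = 0.889). Psmb7, which carries the trypsin-like site, read 7.54, 7.35 and 6.82 against 8.86, 8.79 and 5.95 (-0.63, adjusted p = 0.896). For both genes CTL replicate 3 alone made the groups overlap. Psmb5, which carries the chymotrypsin-like site, read 9.65, 9.41 and 9.35 against 9.82, 9.9 and 8.76 (-0.022, adjusted p = 0.978). Psmb4, another structural subunit, read 10.09, 10.22 and 9.97 against 10.36, 10.26 and 8.09 (0.52, adjusted p = 0.896). The difference between the DHT replicates and CTL replicates 1 and 2 was thus small for Psmb4 and Psmb5 and larger for Psmb3 and Psmb7.

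**Figure D2:**
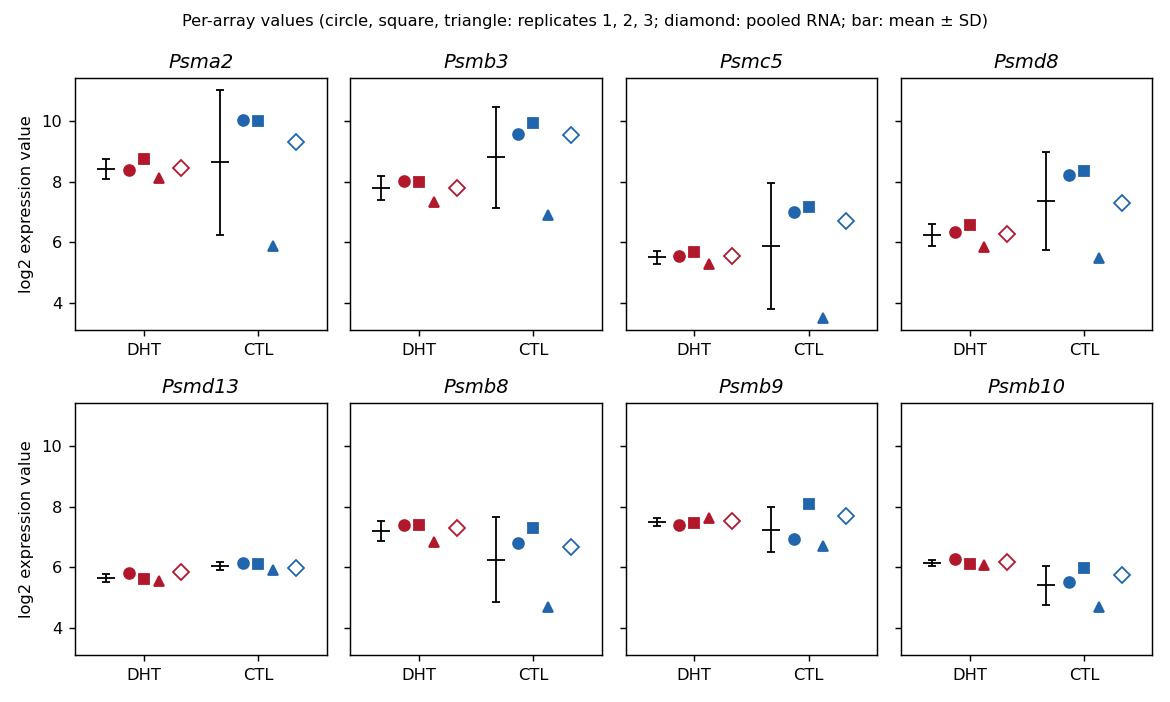
Log2 expression value (vertical axis) of 8 genes on each array, DHT in red and CTL in blue, with circle, square and triangle for replicates 1, 2 and 3, an open diamond for the pooled RNA and a bar for the mean ± SD of the 3 replicates. The upper row (Psma2, Psmb3, Psmc5 and Psmd8) has 2 high and 1 low CTL values around a tight DHT group, Psmd13 has all DHT values below all CTL values, and Psmb8, Psmb9 and Psmb10 have DHT values near those of CTL replicates 1 and 2.

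Constitutive proteasome genes are known to be driven together by the stress-responsive factor NRF1 (Nfe2l1), which binds antioxidant response elements. The motif TGACNNNGC of such elements was looked for on both strands in the 250 bases before the transcript start (RefSeq, GRCr8), where 37 of the 41 members had an entry. It was found in 6 of the 37 promoters, 3 of them among 12 core genes, and in 10.1% of the 33469 promoters of the whole table, and a match is a description of letters and not of a bound site. Stretches around the match are shown for Psmb2, Psmb5, Psmd1 and Psmd9, which carry the motif in their own direction. These genes lay below CTL replicates 1 and 2 on every DHT replicate. So did 28 of the 33 core and 19S genes in all, and 16.5% of all probe sets. The motif is in capitals, and each stretch is read in the direction of its gene.
Psmb2, chr5:144254970-144255018, plus strand: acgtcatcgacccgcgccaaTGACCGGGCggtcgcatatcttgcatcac
Psmb5, chr15:32047411-32047459, minus strand: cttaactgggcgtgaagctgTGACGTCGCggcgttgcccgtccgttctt
Psmd1, chr9:94157786-94157834, plus strand: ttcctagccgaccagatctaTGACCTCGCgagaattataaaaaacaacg
Psmd9, chr12:39018313-39018361, minus strand: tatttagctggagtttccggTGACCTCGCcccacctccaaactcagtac
The first base of the motif lay 68 bases before the start in Psmb2, 60 in Psmb5, 165 in Psmd1 and 77 in Psmd9, which has a further match on the other strand. The remaining genes with a match were Psma3 and Psme4, whose DHT replicates lay above every CTL replicate at the probe set taken. At the other probe sets of Psme4 the log2 fold changes were -0.081 and -1.25. The probe set shared by Psma3 and Psma3l had -0.081.

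Of the 6 ATPases of the 19S base, 4 had every DHT replicate below CTL replicates 1 and 2. Psmc1 read 7.33, 7.42 and 7 in DHT-treated and 8.68, 8.68 and 6.42 in CTL ovaries (-0.68, standard error 0.67, adjusted p = 0.896). Psmc4 read 7.61, 7.7 and 7.65 against 8.48, 8.36 and 7.08 (-0.32, adjusted p = 0.896). Psmc5 had its DHT replicates between 5.28 and 5.7 and its CTL replicates at 7, 7.17 and 3.49. In each of these 3 genes the DHT animals were alike and CTL replicate 3 lay below all of them. Psmc2 read 9.75, 9.65 and 9.77 against 9.7, 9.84 and 8.94 (0.23, adjusted p = 0.896), so its DHT values lay among the 2 higher controls. Psmc6 had 3 probe sets that disagreed about CTL replicate 3, which was the highest of the 6 arrays at 8.94 on the brightest probe set and read 5.82 and 7.85 on the others.

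Among the 11 non-ATPase genes, Psmd8, a subunit of the lid, had the most negative log2 fold change of all members. It read 6.33, 6.56 and 5.85 in DHT-treated and 8.25, 8.36 and 5.5 in CTL ovaries (-1.12, standard error 0.84, adjusted p = 0.812). Psmd13, a lid subunit, read 5.81, 5.62 and 5.54 in DHT-treated and 6.15, 6.11 and 5.91 in CTL ovaries. Here the groups did not overlap, and the gene had the smallest adjusted p of the members, 0.24, at a change of -0.40 (standard error 0.11). Psmd12, also a lid subunit, read 7.49, 7.46 and 7.67 against 7.75, 7.84 and 8.13 (-0.36, standard error 0.13, adjusted p = 0.364). Its groups did not overlap either, with CTL replicate 3 the highest array. Psmd1, the scaffold of the base, read 6.53, 6.35 and 6.36 against 7.09, 7 and 6.34 (-0.40, adjusted p = 0.607).

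The deubiquitinase Psmd14, which cuts ubiquitin chains off the substrate, was measured by 3 probe sets. The brightest read 7.47, 7.56 and 7.42 in DHT-treated and 8.4, 8.33 and 7.13 in CTL ovaries (-0.47, adjusted p = 0.837). A second read 4.37, 4.83 and 3.72 against 7.48, 7.34 and 3.11 (-1.67, adjusted p = 0.831), so the same gene gave a larger difference at another probe set, which without CTL replicate 3 was called lower (-3.10, adjusted p = 0.0356). Psmd7, a structural partner of Psmd14, read 7.71, 7.67 and 7.98 against 7.62, 7.76 and 7.38 at the brightest probe set (0.20, adjusted p = 0.759) and 4.87, 5.25 and 4.84 against 7.16, 6.44 and 4.24 at the other (-0.96, adjusted p = 0.864), where it was called lower without CTL replicate 3 (-1.81, adjusted p = 0.0498). Of the 41 genes 9 had more than 1 probe set, 55 probe sets in all for the 41 genes.

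Of the 3 chaperones that help to assemble the 19S base, Psmd10 (gankyrin) read 6.94, 6.86 and 6.77 in DHT-treated and 7.39, 7.39 and 7.01 in CTL ovaries, without overlap (-0.41, standard error 0.13, adjusted p = 0.309). Psmd5 read 6.44, 6.86 and 6.51 against 7.59, 7.52 and 3.95 (0.25, standard error 1.06, adjusted p = 0.926). Psmd9 read 4.04, 3.99 and 3.69 against 4.95, 4.75 and 3.02 (-0.33, adjusted p = 0.896), with CTL replicate 3 near background. In all 3 the DHT replicates lay below CTL replicates 1 and 2. Psmd10, Psmd12 and Psmd13 were the 3 members with every DHT replicate below every CTL replicate, a layout that 6.85% of all probe sets had. Psma3, Psme4, Psmb10 and Psme3ip1 were the 4 with every DHT replicate above, as 10.6% of all probe sets were. Both shares are near those of the members.

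Among the immunoproteasome genes the DHT replicates did not lie below CTL replicates 1 and 2 as a rule. Psmb8, the inducible counterpart of Psmb5, read 7.39, 7.4 and 6.83 in DHT-treated and 6.8, 7.31 and 4.68 in CTL ovaries. Its log2 fold change of 0.94 was the largest of the members, with a standard error of 0.73 (adjusted p = 0.83). Without CTL replicate 3 it was 0.15, below that of Psma3, Psme3ip1, Psmb10, Psmc6, Psme4 and Psmd11. Psmb9, the counterpart of Psmb6, read 7.39, 7.47 and 7.64 against 6.95, 8.09 and 6.71 (0.25, adjusted p = 0.896), so its DHT values lay inside the range of the controls. Psmb10, the counterpart of Psmb7, read 6.28, 6.1 and 6.09 against 5.54, 5.99 and 4.71, with no overlap (0.75, standard error 0.34, adjusted p = 0.485). Of the activator pair, Psme1 read 9.23, 9.45 and 9.02 against 9.48, 9.81 and 6.44 (0.66, adjusted p = 0.896) and Psme2 7.9, 7.7 and 7.62 against 7.86, 8.14 and 5.51 (0.57, adjusted p = 0.896). In all 5 genes CTL replicate 3 was the lowest array. Against CTL replicates 1 and 2 only, the median difference of the 5 was -0.025, where that of the core 20S genes was -1.12 and that of the 19S genes -0.77.

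Interferon acts on such genes through the interferon-stimulated response element, and its motif, GAAA and again GAAA after any 2 bases, was looked for in the same way. It was found in 2 of the 5 immunoproteasome promoters and in 5 of the 37 members in all, against 3.41% of the promoters of the table. The stretches are shown because both genes with a match belong to the class that differed least from CTL replicates 1 and 2, with the motif in capitals, and Psmb10 has a pair of matches.
Psmb10, chr19:50743336-50743385, minus strand: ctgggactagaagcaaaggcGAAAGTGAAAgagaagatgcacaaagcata
Psmb10, chr19:50743293-50743329, minus strand: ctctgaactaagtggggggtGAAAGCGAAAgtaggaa
Psme2, chr15:33052775-33052824, minus strand: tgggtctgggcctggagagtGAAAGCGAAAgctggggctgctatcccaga
The other 3 matches were in Psma4, Psmb3 and Psmd7, which are constitutive genes.

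The exchange of catalytic subunits was compared within each array, as the log2 value of the inducible gene minus that of the constitutive gene whose place it takes. The size of such a difference depends on the probes, so only its change between the groups is read. Psmb8 minus Psmb5 was -2.26, -2.01 and -2.52 in DHT-treated and -3.01, -2.6 and -4.08 in CTL ovaries. The groups did not overlap, and the change was 0.96 (exact permutation test, two-sided, p = 0.1, adjusted p = 0.2 over 2 pairs). Psmb10 minus Psmb7 was -1.26, -1.25 and -0.73 in DHT-treated and -3.33, -2.8 and -1.24 in CTL ovaries, a change of 1.38 (exact p = 0.3, adjusted p = 0.3), with CTL replicate 3 inside the DHT range. With 3 animals against 3 the exact test cannot go below 0.1, so neither pair could pass at 0.05. The change was 0.54 and 1.99 without CTL replicate 3, and 1.83 and 0.15 with the Gapdh difference as a covariate. For Psmb9 no pair could be formed, since Psmb6 has no probe set of its own.

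Psme4, an activator of the proteasome in the nucleus, read 6.52, 6.61 and 6.61 in DHT-treated and 6.29, 6.31 and 5.35 in CTL ovaries (0.60, standard error 0.28, adjusted p = 0.51). The groups did not overlap, but the mean of its 3 probe sets had a log2 fold change of -0.24. Psme3ip1, which binds the activator Psme3, read 5.8, 5.63 and 5.46 against 5.1, 5.29 and 4.52 (0.66, standard error 0.22, adjusted p = 0.341). Psmc3ip, a factor of meiotic recombination, read 3.66, 3.74 and 3.73 against 3.65, 3.88 and 2.96 (0.22, adjusted p = 0.896), with CTL replicate 3 near background.

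Without CTL replicate 3, which left CTL replicates 1 and 2, the picture of the constitutive genes changed. Those 2 arrays had Gapdh differences of 0.39 and 0.62, and the DHT replicates 2.99 to 3.98. Treatment and the Gapdh difference can therefore not be told apart in this fit. In it 13 members were called lower with DHT and none higher, where 3.12% of all probe sets were called lower and 2.11% higher, and of those above background 4.61% and 3.97%. They were 7 core genes, Psma1, Psma2, Psma5, Psmb1, Psmb2, Psmb3 and Psmb7, and 6 genes of the 19S particle, Psmc1, Psmc3, Psmc5, Psmd4, Psmd6 and Psmd8. Psmd8 had the most negative value, -2.05 (standard error 0.25, adjusted p = 0.0355), followed by Psmb3 at -1.97 (standard error 0.29, adjusted p = 0.0463). Further genes had small errors but a change under 2-fold, such as Psmd14 at -0.88 (adjusted p = 0.017) and Psmc4 at -0.77 (adjusted p = 0.0182). Psme4 was at 0.28 (adjusted p = 0.0396). With array quality weights in place of leaving the array out, 11 of the 13 were called lower and no member higher, against 3.69% and 2.35% of all probe sets. These weights gave CTL replicate 3 only 0.028, so that fit is close to leaving the array out and is not a separate result. None of the immunoproteasome genes was called without CTL replicate 3, and none had an unadjusted p under 0.05. In 28 of the 33 core and 19S genes every DHT replicate lay below CTL replicates 1 and 2, as in 16.5% of all probe sets and 24.3% of those above background. Among the immunoproteasome genes every DHT replicate lay below them in 1 of 5, Psme1 at -0.41 (adjusted p = 0.267). In 4 members, Psmb10 among them, every DHT replicate lay above them, as in 45.1% and 39.2%.

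The other members described above took the following values without CTL replicate 3. In the alpha ring the log2 fold change was -1.60 for Psma2, -0.44 for Psma4, -0.65 for Psma6 and 0.49 for Psma3. In the beta ring it was -1.59 for Psmb7, -0.22 for Psmb4 and -0.39 for Psmb5. Thus Psma3 alone of the 13 core genes had a positive value. A brighter probe set shared by Psma3 and Psma3l was called lower in the same fit (-1.65, adjusted p = 0.0735). Of the ATPases it was -1.43 for Psmc1, -1.58 for Psmc5, -0.047 for Psmc2 and 0.31 for Psmc6. Of the non-ATPases it was -0.63 for Psmd1, -0.25 for Psmd12 and -0.47 for Psmd13, and of the chaperones -0.95 for Psmd5, -0.94 for Psmd9 and -0.53 for Psmd10. The 3 genes whose groups did not overlap with all arrays, Psmd10, Psmd12 and Psmd13, kept a negative value. Among the immunoproteasome genes it was 0.40 for Psmb10, -0.025 for Psmb9 and -0.26 for Psme2, and it was 0.44 for Psme3ip1 and -0.054 for Psmc3ip.

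The sign of most constitutive genes turned once the Gapdh difference entered the fit. CTL replicates 1 and 2, on which the core and 19S genes read highest, were the 2 arrays with the smallest Gapdh difference. With that difference as a covariate in the fit, 36 of the 41 members had a positive log2 fold change, while 20277 of the 31042 probe sets and 6549 of the 15539 above background had a negative one, and 18 were called higher in DHT-treated ovaries and none lower, where 8.57% of all probe sets were called higher and 3.5% lower. The 18 were 7 core genes, 5 of the 19S particle, 4 immunoproteasome genes (Psme1, Psme2, Psmb8 and Psmb10), Psme4 and Psme3ip1. Of these 18, 9 were genes called lower without CTL replicate 3, Psma2 among them at 2.47 (adjusted p = 0.0157). The median was 1.23 for the core genes, 0.43 for the 19S genes and 2.11 for the immunoproteasome genes. CTL replicate 3 was the only CTL animal with a Gapdh difference like that of the DHT animals. The DHT mean differed from this 1 animal by a median of 1.28 in the core genes, 0.49 in the 19S genes and 2.22 in the immunoproteasome genes. The covariate fit sets the DHT arrays largely against this same array, so the 2 sets of medians are not separate results. The 18 calls rest largely on that array as well.

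**Figure D3:**
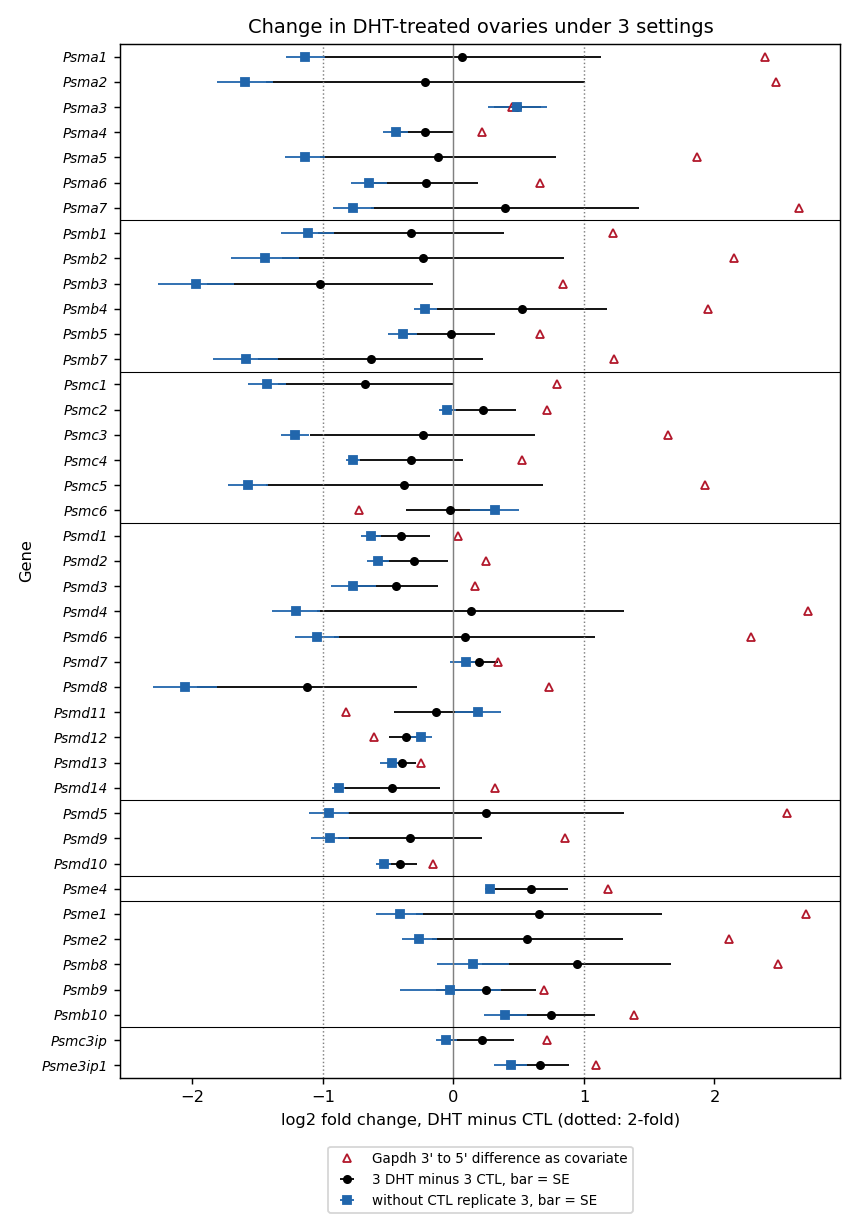
Log2 fold change, DHT minus CTL, of the 41 genes in 3 fits, with black circles for 3 DHT against 3 CTL replicates, blue squares for the fit without CTL replicate 3 (bars are standard errors) and open red triangles for the fit that has the Gapdh difference as a covariate. For most core 20S and 19S genes the squares lie left of 0 and the triangles right of it, with 13 genes called lower in the former fit and 18 genes called higher in the latter.

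**Figure D4:**
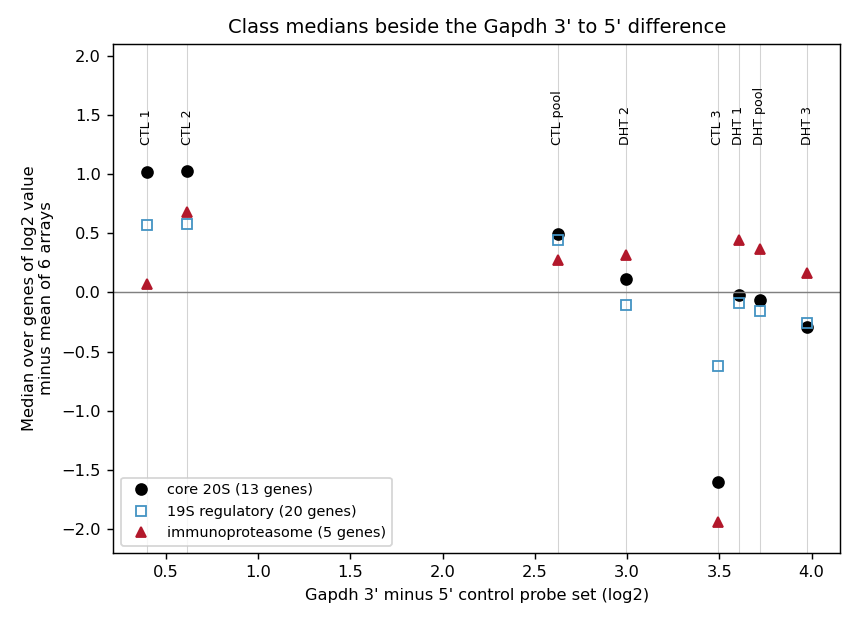
Median over the genes of a class of the log2 value minus the gene's mean over 6 arrays (vertical axis) against the Gapdh difference of the array on the log2 scale (horizontal axis), for each of the 8 arrays. The core 20S median is 1.02 on both CTL replicate 1 and CTL replicate 2, between -0.29 and 0.12 on the DHT replicates and -1.6 on CTL replicate 3, which shares the large Gapdh difference of the DHT arrays.

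The arrays of pooled RNA gave a reading of the same animals in which the controls are averaged before labelling. Pooled DHT RNA read lower than pooled CTL RNA for 33 of the 41 members, as it did for 9475 of the 31042 probe sets and for 6482 of the 15539 above background. The median difference was -0.60 for the core genes, -0.59 for the 19S genes and -0.026 for the immunoproteasome genes, with no test. It reached 2-fold for 5 members, Psma1 (-1.01), Psmb3 (-1.73), Psmb7 (-1.09), Psmc5 (-1.17) and Psmd8 (-1.04), where 3.52% of all probe sets and 6.04% of those above background were lower by that much. No member was higher by 2-fold, where 2.26% of all probe sets were, and Psmb8 at 0.63 and Psmb10 at 0.43 had the most positive differences. Taken into the fit as replicate 4, the pooled arrays left no member called, against 1.39% of all probe sets lower and 1.72% higher. The pooled CTL array lay within 0.5 on the log2 scale of the mean of the 3 CTL animals taken on the linear scale for 40 of the 41 members, Psmd8 being the exception, and the pooled DHT array for all 41. A mean on the linear scale is led by the 2 higher animals, and on that scale the DHT mean was below the CTL mean for 29 of the 41 members, with a median log2 ratio of -0.40. The pooled CTL array had a Gapdh difference of 2.62 and the pooled DHT array one of 3.72.

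Other genes of the pathway, taken from lists of known factors, held no called gene in this comparison either. The lists were the factors that assemble the 20S core (5 of 5 measured, median log2 fold change 0.35), factors bound to the proteasome (11 of 12, -0.011), NRF1 with the proteins that process it or pair with it (7 of 7, 0.10), ubiquitin genes and their activating enzymes (2 of 6, 0.15), and ubiquitin shuttles and the p97 unfoldase (8 of 9, -0.23). Against CTL replicates 1 and 2 only, the medians were, in the same order, -0.30, -0.098, -0.23, 0.13 and -0.84. CTL replicate 3 was the lowest array for all 5 assembly factors and all 8 shuttle and p97 genes. Of the assembly factors, Psmg4 had 0.65 (adjusted p = 0.594) and Psmg1 0.63 (adjusted p = 0.896). Without CTL replicate 3 they had 0.32 and -0.16. Akirin1, related to the factor that carries proteasomes into the nucleus, read 6.9, 7.08 and 7.09 in DHT-treated and 7.68, 8.07 and 7.86 in CTL ovaries. Its difference of -0.85 was under 2-fold (standard error 0.12, adjusted p = 0.0736). Ube3c, a ubiquitin ligase that acts on the proteasome, had -0.71 (adjusted p = 0.552). Without CTL replicate 3 Ube3c was called lower (-1.10, adjusted p = 0.0371), as was Vcp, the p97 unfoldase, at -1.22 (adjusted p = 0.0319), where it had -0.52 with all arrays.

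Nfe2l1, the gene of NRF1, read 6.86, 7.27 and 6.45 in DHT-treated and 8.98, 8.64 and 7.44 in CTL ovaries. All DHT animals lay below all CTL animals. The difference of -1.49 (standard error 0.46, adjusted p = 0.285) was not called, and without CTL replicate 3 it was called lower (-1.95, adjusted p = 0.0477). Maff, a partner of such factors, had -0.26 (adjusted p = 0.771). Uba1, the main activating enzyme of ubiquitin, read 8.28, 8.12 and 8.17 against 7.58, 7.77 and 7.58, a difference of 0.55 that is under 2-fold (standard error 0.086, adjusted p = 0.087), whereas Uba6, the other such enzyme, had -0.24 (adjusted p = 0.896). Among the shuttles, Ubqln4 had 0.74 (adjusted p = 0.773) and Nploc4, a cofactor of p97, -0.46 (adjusted p = 0.862). Without CTL replicate 3 these were 0.15 and -0.86.

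The genes that act beside the immunoproteasome were not called with all arrays. The 8 genes of MHC class I peptide loading had a median log2 fold change of 0.046, with Tapbp, which holds MHC class I at the peptide transporter, at 0.25 (adjusted p = 0.438) and Canx, a chaperone of the endoplasmic reticulum, at 0.14 (adjusted p = 0.896). Against CTL replicates 1 and 2 only, the median of this list was -0.23. Pdia3, a further chaperone of it, had -0.36 and was called lower without CTL replicate 3 (-1.09, adjusted p = 0.0416). Of 19 interferon-response genes, Psmb8, Psmb9 and Psmb10 among them, 18 were measured, with a median of -0.034. It was 0.038 against CTL replicates 1 and 2 only. Irf1, a transcription factor of the interferon response, read 6.74, 6.97 and 7.56 in DHT-treated and 5.96, 6.32 and 6.01 in CTL ovaries. The groups did not overlap, and the difference of 0.99 had a standard error of 0.24 (adjusted p = 0.186). Igtp, a GTPase induced by interferon gamma, had 0.73 (adjusted p = 0.408).

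Markers of other cells moved with the groups as follows. The mean log2 value over 12 measured lymphocyte markers was 2.75 to 2.85 on the DHT replicates and 2.76 to 2.92 on the CTL replicates, with 4 markers (Cd4, Ms4a1, Cd79b and Nkg7) near background on all 6 arrays. Cd3d and Cd2 were near it on 5. The background of the arrays was 2.62 to 3.05, so this mean cannot show whether lymphocytes differed. The genes of this list with the smallest p were Gzmb, a protease of cytotoxic cells, at -0.81 (adjusted p = 0.299) and Cd3g, of the T cell receptor complex, at 0.24 (adjusted p = 0.564). The mean over 14 macrophage markers was 4.54 to 4.84 in DHT-treated ovaries and 5.99, 5.56 and 4.76 in CTL ovaries, with Itgam near background on all 6 arrays and Ctss, a lysosomal protease, called lower at -1.16 (adjusted p = 0.0994). Without CTL replicate 3, 5 of the 14 were called lower (C1qa, C1qb, C1qc, Lyz2 and Ctss) and none higher, where 3.12% of all probe sets were called lower. The leukocyte antigen Ptprc read 4.37 to 4.83 in DHT-treated ovaries and 6.09, 5.31 and 4.08 in CTL ovaries. The mean over 8 corpus luteum markers was 6.3 to 7.87 in DHT-treated ovaries and 9.56, 11.03 and 9.48 in CTL ovaries. No marker was near background on all 6 arrays, but Ptgfr was near it on 4 and Rln1 on 1. The mean on CTL replicate 3, low in the proteasome genes, was thus close to that on CTL replicate 1, but single markers differed. Rln1 read 5.53 on CTL replicate 1 and 10.11 on CTL replicate 3, and Prlr and Hsd3b1 also read higher on the latter. The other markers read lower on CTL replicate 3, such as Scarb1 at 10.14 against 11.86. In that list A2m had -5.63 (adjusted p = 0.104) and Star, which brings cholesterol to steroid synthesis, -3.75 (adjusted p = 0.21), and A2m was called lower without CTL replicate 3 (-6.27, adjusted p = 0.0565). The mean over 5 endothelial markers was 5.19 to 5.82 in DHT-treated and 5.77 to 6.53 in CTL ovaries, with Kdr at -1.16 (adjusted p = 0.268) and Pecam1 at -1.10 (adjusted p = 0.279), both called lower without CTL replicate 3. Of 5 red blood cell markers 2 were measured, Alas2, near background on all 6 arrays, and Hbb, which had 0.75 (adjusted p = 0.896). The part of these cells in the values of the proteasome genes was not tested.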

How the data were processed

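RNA of ovarian cortex, as the methods of the study name the tissue, was hybridized to Affymetrix rat genome arrays. The sample titles name only the ovary. The deposited log2 values were made by the authors with GCRMA, which corrects the background, normalizes between arrays and summarizes the probes of a set. Versions are not given in the sources used here. No test included the 57 control probe sets of the manufacturer. Of 31042 probe sets 20826 carry 1 symbol, 436 several and 9780 none in the platform annotation, and all 41 members kept their symbol when matched by Entrez gene to GRCr8. The 3 DHT and 3 CTL arrays were compared in limma (version 3.58.1, R version 4.3.3, functions lmFit and eBayes), p-values were adjusted after Benjamini and Hochberg over all 31042 probe sets, and the fit was tested on simulated data. Every adjusted p is from this fit unless said otherwise. Exact permutation tests used SciPy 1.17.1. The arrays of pooled RNA hold RNA of the same animals and were left out. The methods of the study describe 1 pool per group, and the array titled replication 4 was taken as that pool. The titles themselves do not mark it as one. The number of arrays limits the precision.

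The members and lists were chosen with earlier results of these data known. Genes named one by one are the immunoproteasome genes with Psmb5 and Psmb7, the 3 members with the smallest p in each other subgroup, the members with the extreme changes, and in each other list the called genes or else the 2 with the smallest p. Further genes named for a count, a probe set, a motif, a call without CTL replicate 3 or the spread within a list were chosen after their values were seen. Lists are described by counts and medians with no set test. As alternatives, each array was left out in turn, the Gapdh difference was a covariate, arrays were weighted by quality, the replicate number was a block, the pooled arrays were added or compared alone, values were scaled by quantiles or medians, a variance trend was fitted, dim probe sets were dropped, probe sets of a gene were averaged, and other call criteria were applied. Protein sequences were not used here.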

Additional observations from a re-analysis of the deposited data

How the results depend on the processing

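The count of proteasome genes called was 0 lower and 0 higher with a false discovery rate of 5% alone, the mean of all probe sets, no dim probe sets, scaling by quantiles or by medians, a variance trend, or the pooled arrays as replicate 4. It was 11 lower with array quality weights, where CTL replicate 3 had a weight of 0.028, 3 lower and 2 higher at an unadjusted p of 0.05, and 18 higher with the Gapdh covariate, where the medians were 1.23 (core), 0.43 (19S) and 2.11 (immunoproteasome). With one array left out, 0 to 13 were called lower and 0 higher, the 13 without CTL replicate 3. The medians then ran from -1.12 (without CTL replicate 3) to 0.37 (without CTL replicate 2) for the core genes, from -0.77 to -0.14 for the 19S genes and from -0.025 to 1.05 for the immunoproteasome genes. The change of Psmb8 minus Psmb5 ran from 0.54 to 1.28 and that of Psmb10 minus Psmb7 from 0.95 to 1.99. With the Gapdh covariate these changes were 1.83 and 0.15. With the replicate block, 0 were called lower and 0 higher. The same-numbered arrays deviated together with correlations of -0.074, 0.44 and 0.34, so the numbers were not taken to pair the animals.

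Over 25 named members and 375 values under the alternatives, 327 kept sign and call, 32 turned sign and 16 were newly called. With the Gapdh covariate the log2 fold change turned to 0.22 for Psma4, 0.66 for Psma6, 0.84 for Psmb3, 0.66 for Psmb5, 1.23 for Psmb7, 0.79 for Psmc1, 0.52 for Psmc4, 0.038 for Psmd1, 0.73 for Psmd8 and 0.86 for Psmd9. With array quality weights it turned to -0.18 for Psmb4, -0.023 for Psmc2, -0.98 for Psmd5, -0.34 for Psme1, -0.14 for Psme2, -0.027 for Psmb9 and -0.058 for Psmc3ip. It was 0.034 for Psmb5 with median scaling and -0.24 for Psme4 over all its probe sets. With one array left out it ran from -0.65 to 0.036 for Psma6, -0.22 to 0.92 for Psmb4, -0.39 to 0.18 for Psmb5, -0.047 to 0.40 for Psmc2, -0.95 to 0.87 for Psmd5, -0.94 to 0.021 for Psmd9, -0.41 to 1.27 for Psme1, -0.26 to 1.05 for Psme2, -0.025 to 0.67 for Psmb9 and -0.054 to 0.41 for Psmc3ip. The cause was not tested.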

Other observations

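Some proteasome probe sets carry several symbols and are not counted among the 41 genes. The probe set shared by Psmb6 and Psmb6l1 read 7.42, 7.37 and 7.1 on the DHT replicates and 7.93, 7.94 and 5.44 on the CTL replicates, the layout of the other beta ring genes, with a log2 fold change of 0.19 (adjusted p = 0.92, limma). The probe set shared by Psma3 and Psma3l read 8.49, 8.72 and 7.77 against 9.97, 9.99 and 5.26 (-0.081, adjusted p = 0.98), where the probe set of Psma3 alone had every DHT replicate above every CTL replicate. Without CTL replicate 3 the shared probe set was called lower (-1.65, adjusted p = 0.0735). The brighter pair of the 4 probe sets shared by Psme3, Aoc3 and G6pc1 had log2 fold changes of 0.36 (adjusted p = 0.896) and -0.37 (adjusted p = 0.419).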
